A study of Mus with 9 samples.

Results

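Nuclear receptor genes were followed in the whole-kidney transcriptome of old male C57BL/6 mice. The set holds 42 of the 54532 genes in the deposited table. Members were picked by gene symbol as the receptors of the nuclear receptor superfamily, leaving out the clock receptors and the vitamin D receptor. The mice formed 3 groups of 3, and RNA-seq gave 1 library per mouse, 9 in all. All mice had 1 kidney removed at 18 months of age. In the 18 mo group the remaining kidney was taken 1 week later. The 21 mo group then received saline by intraperitoneal injection for 12 weeks. The 21 mo/O304 group received O304, a small molecule that activates the energy-sensing kinase AMPK, at 10 mg/kg per day by the same route for 12 weeks. The 18 mo mice differed from the other groups in age, in the time since surgery and in having no injections, and these cannot be told apart. The comparison of 21 mo with 18 mo mice thus asked what the further 12 weeks did to receptor expression, and the comparison of 21 mo/O304 with 21 mo mice asked what O304 did.

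Nuclear receptors are transcription factors that bind DNA through zinc fingers and are switched by small lipophilic ligands, such as fatty acids, retinoids, bile acids, oxysterols and steroid or thyroid hormones. Many act as heterodimers with a retinoid X receptor (RXR), whereas the steroid receptors act as homodimers and several orphan receptors act without a known ligand. In the kidney, PPARα drives fatty acid oxidation in proximal tubule cells, HNF4α maintains the differentiated proximal tubule, the oestrogen-related receptors (ERRs) drive mitochondrial genes, and the mineralocorticoid receptor controls sodium transport in the distal nephron.

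Libraries held 15636378 to 18396725 counted reads, and a single read was worth 0.0458 to 0.0669 CPM, the count scaled to library size. Of the 42 receptors, 34 passed the filter on low counts, out of 15902 genes tested. The other 8, Rxrg, Rorb, Nr1i3, Esr2, Nr5a1, Nr5a2, Nr2e3 and Nr0b1, had too few counts. The libraries of the 21 mo group differed widely from each other. The summed level of 8 proximal tubule markers was 13279 to 16711 CPM in the 18 mo libraries and 14545 to 15248 CPM in the 21 mo/O304 libraries. In the 21 mo libraries it was 14099, 7182.5 and 1975.4 CPM for replicates 1, 2 and 3. The sum of 7 fibroblast markers ran the other way in that group, at 141, 582 and 1389 CPM, against 183 to 283 CPM at 18 mo and 117 to 266 CPM after O304. The sum of 6 macrophage markers was 190 to 278 CPM at 18 mo, 383, 424 and 1231 CPM in the 21 mo libraries, and 285 to 300.1 CPM after O304. The sum of 6 distal tubule and collecting duct markers was 1363 to 1626 CPM at 18 mo, 777 to 1172 CPM at 21 mo and 1361 to 1697 CPM after O304. Its members differed. Slc12a3 went with the sum, at 624 to 880, 244 to 565 and 694 to 815 CPM in this order of groups. Aqp2 had 109 to 325, 151 to 328 and 75.7 to 120.4 CPM. Aqp3 had 82.9 to 120.5, 35.5 to 80.5 and 59.6 to 69.1 CPM, so it stayed below every 18 mo mouse after O304. In bulk tissue, fewer cells of a type and less RNA per cell cannot be told apart.

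The level of a receptor relative to the others is best read per transcript length, as FPKM, which scales reads to gene length and library size (mean over the 9 libraries). Hnf4a was the most abundant receptor at 165 FPKM. Esrra, which encodes ERRα, came next at 58.0 FPKM, and the order of Esrra and Nr1h4, the bile acid receptor FXR at 57.6 FPKM, differed between groups. Rxra followed at 29.6 FPKM, then the orphan receptor Nr2f6 at 27.6 FPKM and the oxysterol receptors Nr1h2 (LXRβ) at 25.3 FPKM and Nr1h3 (LXRα) at 20.5 FPKM. These ranks from Rxra to Nr1h2 were within the spread between mice. Ppara, at 14.5 FPKM, lay beside the glucocorticoid receptor Nr3c1 at 14.0 FPKM and Rxrb at 13.7 FPKM. At the lower end, Pparg had 0.841 FPKM, Nr6a1 0.483 FPKM, Nr4a3 0.237 FPKM and Rxrg 0.129 FPKM. Nr5a1, the steroidogenic factor of adrenal and gonad, had no count in any library, which allows up to 3 counts per library.

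**Figure D1:**
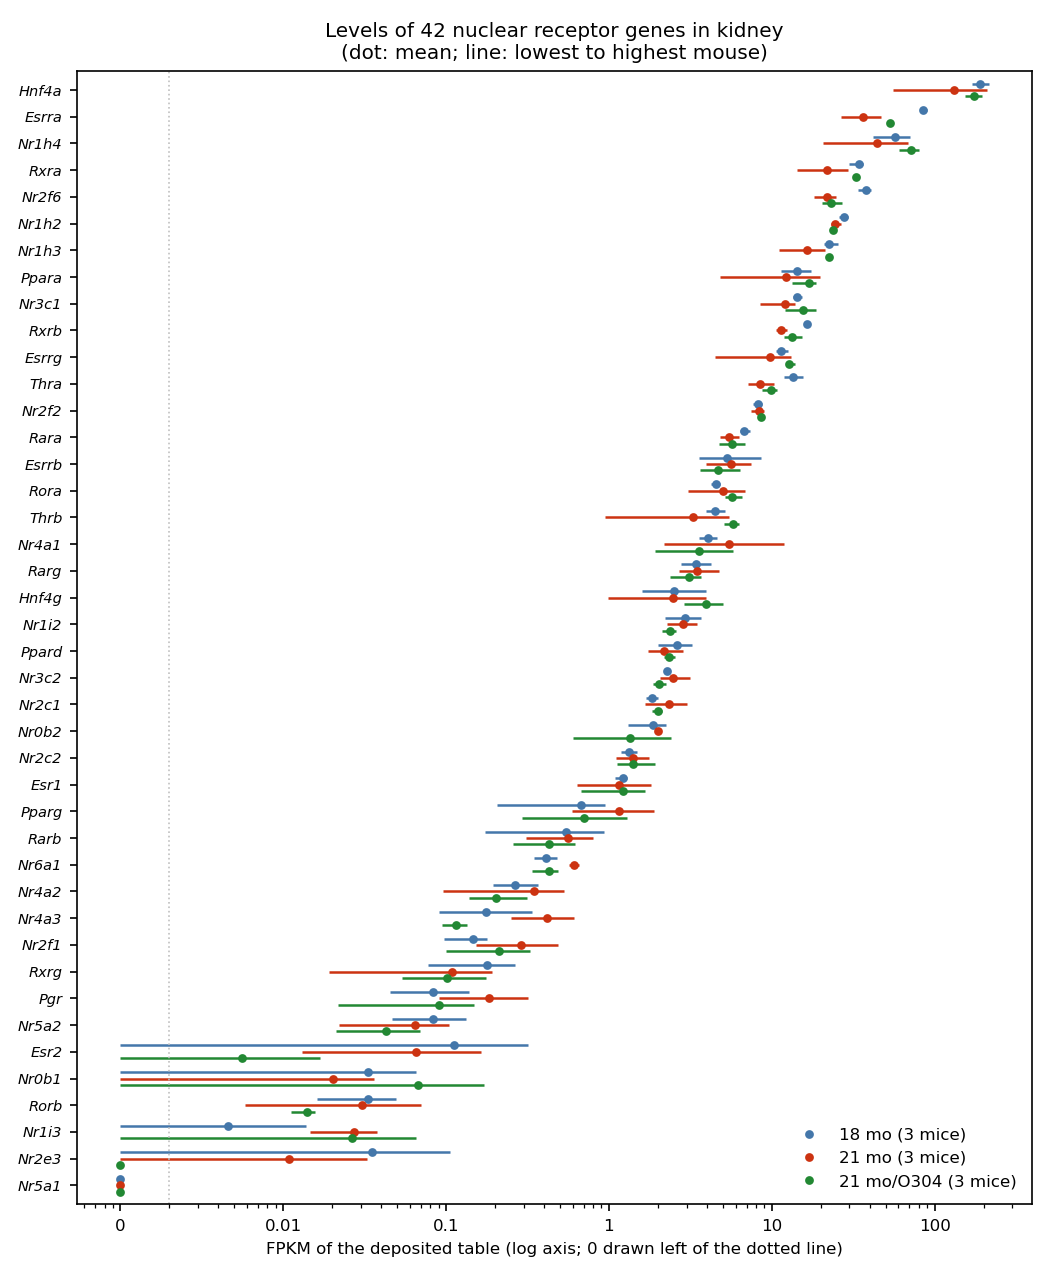
Level of each of the 42 nuclear receptor genes (rows, ordered by mean over all libraries) in FPKM on a log axis, with values of 0 drawn left of the dotted line. Dots are means of 3 mice and lines run from the lowest to the highest mouse. Hnf4a, at 165 FPKM on average, stands above all others, and the 21 mo group (red) has the longest lines for many of the abundant receptors.

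No receptor passed an adjusted p of 0.05 in edgeR's quasi-likelihood test in any of the 3 comparisons. In 21 mo against 18 mo mice the test called 3 of all 15902 genes (0.0189%), namely Aldh1a1, Tgif1 and Ugt1a2, which are no members. The background was 0% both in 21 mo/O304 against 21 mo and in 21 mo/O304 against 18 mo mice. With an unadjusted p under 0.05, 6 of 34 receptors (17.6%) were counted in 21 mo against 18 mo mice, beside 26.1% of all genes. In 21 mo/O304 against 21 mo mice it was 4 of 34 (11.8%) beside 20.7% of all genes, and in 21 mo/O304 against 18 mo mice 4 of 34 (11.8%) beside 9.66%. All 4 of the last comparison, Esrra, Nr2f6, Rxrb and Thra, were lower, beside 5.33% of all genes lower and 4.33% higher. Counted in either direction, the receptors' shares were thus below or near the background. The share lower in the last comparison, 11.8% beside 5.33%, was above it but rests on 4 receptors. Libraries of the groups compared did not overlap for 7 receptors in 21 mo against 18 mo mice, beside 28.8% of all genes, for 5 in 21 mo/O304 against 21 mo mice, beside 21.3%, and for 7 in 21 mo/O304 against 18 mo mice, beside 26.5%. The median log2 fold change of the 34 receptors was -0.02 in 21 mo against 18 mo mice, 0.05 in 21 mo/O304 against 21 mo mice and -0.09 in 21 mo/O304 against 18 mo mice. Over all genes these medians were 0.03, -0.02 and 0.00.

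Other settings called between 0 and 15 receptors, the 15 beside 52.9% of all genes. With DESeq2, which fitted 28225 genes, 4 receptors passed in 21 mo against 18 mo mice, Esrra, Nr2f6, Rxrb and Thra, all lower, beside 3.21% of genes lower and 7.29% in either direction. DESeq2 passed Nr4a3 alone in 21 mo/O304 against 21 mo mice, lower, beside 2.36% of genes lower and 3.36% in either direction. It passed Nr2f6 alone in 21 mo/O304 against 18 mo mice, lower, beside 0.283% lower and 0.446% in either direction. Single libraries decided the edgeR calls as well. Without 21 mo replicate 1, Rxra, Esrra, Nr2f6, Nr1h3, Rxrb and Thra passed in 21 mo against 18 mo mice beside 25.4% of genes. Rxra, Nr1h4, Esrra, Nr1h3 and Nr4a3 then passed in 21 mo/O304 against 21 mo mice beside 23.1%. Without 21 mo replicate 3, Esrra alone passed in 21 mo against 18 mo mice, beside 0.806%.

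The 3 PPARs are fatty acid sensors that bind DNA with an RXR. Ppara, the receptor of fatty acid oxidation, measured 45.5, 54.2 and 69.0 CPM in the 18 mo mice, 78.8, 47.9 and 19.2 CPM in the 21 mo mice and 52.7, 74.0 and 74.3 CPM in the 21 mo/O304 mice. The 21 mo group thus held both the highest and the lowest of the 9 values, and the groups overlapped. Means were 56.3 ± 11.9, 48.6 ± 29.8 and 67.0 ± 12.4 CPM (SD, n = 3). For Ppara the log2 fold change was -0.21 (SE 0.42, edgeR adjusted p = 0.770) in 21 mo against 18 mo mice and turned to 0.15 without 21 mo replicate 3. In 21 mo/O304 against 21 mo mice it was 0.46 (SE 0.42, edgeR adjusted p = 0.519), and 0.09 without that library. The order of Ppara among the 21 mo libraries was that of their proximal tubule marker sums, whose part in the result was not tested.

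Ppard, the widely expressed PPARδ, measured 15.8, 24.8 and 20.1 CPM at 18 mo, 22.1, 13.5 and 14.98 CPM at 21 mo, and 19.7, 17.5 and 16.9 CPM after O304. All 3 groups overlapped. Its log2 fold changes were -0.26 in 21 mo against 18 mo mice and 0.10 in 21 mo/O304 against 21 mo mice, each with an SE of 0.22. Pparg, the PPARγ of adipocytes and macrophages, was low throughout, at 2.91, 0.616 and 2.66 CPM, then 2.94, 1.82 and 5.77 CPM, then 3.95, 1.55 and 0.891 CPM in the same order of groups. The groups overlapped widely, with log2 fold changes of 0.77 and -0.72 (SE 0.71 each).

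The RXRs are the shared partners of PPARs, retinoic acid and thyroid hormone receptors, LXRs and FXR. Rxra, the most abundant RXR here by FPKM, measured 171, 201 and 205 CPM at 18 mo, 165, 120.3 and 81.7 CPM at 21 mo and 191, 187 and 179 CPM after O304. Each 21 mo value lay below every 18 mo and every 21 mo/O304 value, although 21 mo replicate 1 was only just below the lowest 18 mo mouse. Means were 193 ± 18.9, 122 ± 41.8 and 186 ± 6.35 CPM (SD, n = 3). In edgeR the log2 fold change was -0.65 (SE 0.23, edgeR adjusted p = 0.123) in 21 mo against 18 mo mice, 0.60 (SE 0.23, edgeR adjusted p = 0.204) in 21 mo/O304 against 21 mo mice and -0.05 in 21 mo/O304 against 18 mo mice. Without 21 mo replicate 1 the first of these was -0.91 (edgeR adjusted p = 0.0119) and the second 0.87 (edgeR adjusted p = 0.0163). They were -0.45 (edgeR adjusted p = 0.149) and 0.39 (edgeR adjusted p = 0.332) without 21 mo replicate 3.

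Rxrb, the broadly expressed RXRβ, measured 61.3, 60.4 and 65.8 CPM at 18 mo, 43.3, 40.3 and 47.5 CPM at 21 mo, and 45.6, 48.3 and 58.4 CPM after O304. Both 21-month-old groups lay below every 18 mo mouse, and the 21 mo and 21 mo/O304 values overlapped. Its log2 fold change was -0.52 (SE 0.12, edgeR adjusted p = 0.0716) in 21 mo against 18 mo mice, 0.22 (SE 0.12) in 21 mo/O304 against 21 mo mice and -0.30 (SE 0.12, edgeR adjusted p = 0.482) in 21 mo/O304 against 18 mo mice. DESeq2 gave the first of these an adjusted p of 0.0114. Unlike Rxra, Rxrb showed no graded order within the 21 mo group, since replicate 3 was its highest library. Rxrg, the muscle and brain form, had 46 counts over all libraries and was not tested.

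**Figure D2:**
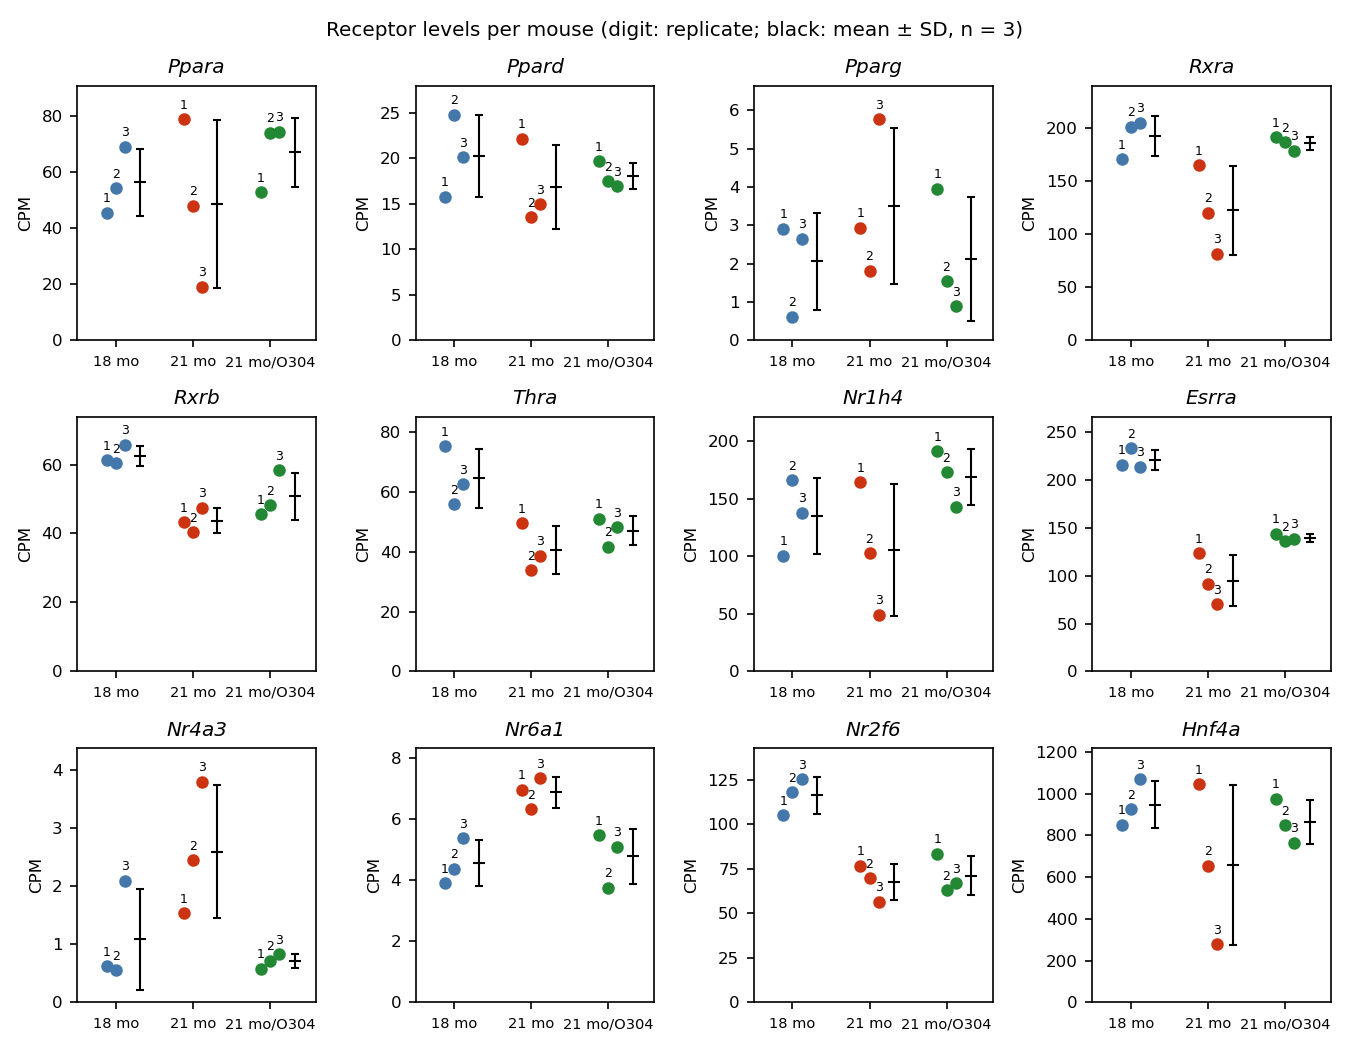
CPM per mouse of the 12 tested receptors whose values are given one by one, for the 18 mo (blue), 21 mo (red) and 21 mo/O304 (green) groups. Colored points are mice with their replicate number, and black bars give the mean ± SD of 3 mice. The 21 mo points of Hnf4a run from 278 to 1045 CPM, whereas those of Rxrb stay between 40.3 and 47.5 CPM.

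Among the hormone receptors that pair with RXR, Thra, the thyroid hormone receptor α, stood out. It measured 75.1, 55.8 and 62.5 CPM at 18 mo, 49.4, 33.8 and 38.7 CPM at 21 mo and 51.1, 41.6 and 48.3 CPM after O304. Both older groups lay below the lowest 18 mo mouse. For Thra the log2 fold change was -0.67 (SE 0.17, edgeR adjusted p = 0.0789) in 21 mo against 18 mo mice, 0.21 (SE 0.17) in 21 mo/O304 against 21 mo mice and -0.46 (SE 0.17, edgeR adjusted p = 0.459) in 21 mo/O304 against 18 mo mice. DESeq2 gave an adjusted p of 0.0168 for the first. Thra shares genomic sequence with Nr1d1 on the other strand, and reads there could not be assigned with certainty, since strand-specific counting was not stated. The related Thrb, with a mean of 4.51 FPKM, ranged from 7.24 to 41.7 CPM within the 21 mo group. All 3 of its 21 mo/O304 values, 38.84 to 47.9 CPM, lay above the highest 18 mo value of 38.76 CPM, the lowest of them only just.

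The retinoic acid receptors Rara, Rarb and Rarg differed mostly in level, with means of 5.99, 0.511 and 3.34 FPKM. Rara was the only one of them with separate groups, at 29.0 to 32.9 CPM in the 18 mo mice and 21.7 to 28.7 CPM in the 21 mo mice. Rora, an orphan receptor of metabolism, had 57.7 to 65.0 CPM at 18 mo and 69.6 to 87.9 CPM after O304, with 41.6 to 92.8 CPM at 21 mo.

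The receptors for oxysterols, bile acids and xenobiotics were mostly well expressed. Nr1h4, the bile acid receptor FXR, measured 101, 166 and 138 CPM at 18 mo, 164, 103 and 49.4 CPM at 21 mo and 192, 173 and 143 CPM after O304. The 21 mo mice again spread across the range, and the groups overlapped. Its log2 fold changes were -0.36 (SE 0.38, edgeR adjusted p = 0.565) in 21 mo against 18 mo mice and 0.68 (SE 0.38, edgeR adjusted p = 0.314) in 21 mo/O304 against 21 mo mice. Without 21 mo replicate 1 the latter was 1.15 (edgeR adjusted p = 0.0390), and without replicate 3 it was 0.35. Nr1h3, LXRα, had 54.9 to 65.1 CPM at 18 mo, 29.0 to 55.0 CPM at 21 mo and 55.8 to 60.2 CPM after O304, the last 2 groups being separate. Nr1h2, LXRβ, varied little, from 80.0 to 101 CPM over all mice. Nr1i2, the xenobiotic receptor PXR, ranged from 5.58 to 9.55 CPM, and Nr1i3, the receptor CAR, had at most 0.298 CPM.

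The steroid receptors overlapped between all groups. Nr3c1, the glucocorticoid receptor, had 104 to 117 CPM at 18 mo, 65.0 to 107 CPM at 21 mo and 92.7 to 142 CPM after O304. Nr3c2, the mineralocorticoid receptor, had 12.4 to 21.0 CPM over all mice. Esr1, the oestrogen receptor α, ranged from 9.07 to 25.6 CPM. Pgr, the progesterone receptor, reached at most 2.84 CPM. Esr2, the oestrogen receptor β, was not tested and had at most 0.568 CPM in all libraries but 18 mo replicate 1, at 1.115 CPM. Rorb and Nr2e3, known from brain and retina, were not tested either and reached at most 0.796 and 0.372 CPM.

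Esrra was the receptor with the largest difference between 21 mo and 18 mo mice among the 29 receptors above 0.5 FPKM. ERRα is an orphan receptor that works with the coactivators PGC-1α and PGC-1β on genes of the respiratory chain. It measured 216, 234 and 214 CPM at 18 mo, 123, 91.5 and 70.0 CPM at 21 mo and 144, 136 and 139 CPM after O304. The 3 groups did not overlap anywhere, with every 21 mo mouse lowest, the O304 mice in between and the 18 mo mice highest. Means were 221 ± 10.7, 94.9 ± 26.8 and 140 ± 3.97 CPM (SD, n = 3). These gave a log2 fold change of -1.22 (SE 0.19, edgeR adjusted p = 0.0626) in 21 mo against 18 mo mice. It was 0.56 (SE 0.19, edgeR adjusted p = 0.187) in 21 mo/O304 against 21 mo mice and -0.66 (SE 0.19, edgeR adjusted p = 0.345) in 21 mo/O304 against 18 mo mice.

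The call for Esrra in 21 mo against 18 mo mice turned on the setting. DESeq2 gave an adjusted p of 9.43e-06, and edgeR gave 0.0376 without 21 mo replicate 3 and 0.00286 without replicate 1, with log2 fold changes of -1.06 and -1.44. In 21 mo replicate 1, where the proximal tubule marker sum of 14099 CPM lay within the 18 mo range, Esrra was at 123 CPM. The lowest 18 mo value of Esrra was 214 CPM. Single markers of that sum parted in this library. Slc34a1, Slc5a2 and Slc22a6, at 3510, 190 and 890.5 CPM, lay below every 18 mo mouse. Lrp2, Slc27a2 and Aqp1, at 3219, 3731 and 1480 CPM, lay above every 18 mo mouse. Slc5a12 and Slc13a3 lay within the 18 mo range. The distal tubule and collecting duct sum of 21 mo replicate 1, 1172 CPM, lay below the 18 mo range. Its macrophage sum, 383 CPM, lay above that range. In the 21 mo/O304 libraries, with proximal tubule marker sums of 14545 to 15248 CPM, Esrra was at most 144 CPM. Their macrophage sums, 285 to 300.1 CPM, also lay above the 18 mo range. Within the 21 mo group Esrra stood in the order of the proximal tubule marker sums. The part of the marker sums in the result for Esrra was not tested. The gene overlaps Trmt112 in the annotation, so a share of its reads could not be assigned with certainty. Esrrb and Esrrg, its paralogs, showed no such pattern. Esrrg had 67.9 to 79.7 CPM at 18 mo, 28.9 to 83.6 CPM at 21 mo and 78.5 to 88.8 CPM after O304, and Esrrb ranged from 22.1 to 54.0 CPM over all mice.

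Nr4a1, Nr4a2 and Nr4a3 are immediate early receptors induced by stress and growth signals. Nr4a3 measured 0.619, 0.555 and 2.09 CPM at 18 mo, 1.54, 2.44 and 3.80 CPM at 21 mo and 0.582, 0.715 and 0.828 CPM after O304. Every O304 mouse lay below every 21 mo mouse, whereas 21 mo and 18 mo mice overlapped. The log2 fold change was -1.87 (SE 0.58, edgeR adjusted p = 0.178) in 21 mo/O304 against 21 mo mice and 1.25 (SE 0.56, edgeR adjusted p = 0.200) in 21 mo against 18 mo mice. DESeq2 gave the first an adjusted p of 0.0465, and edgeR gave 0.0350 without 21 mo replicate 1. The value of the first was -1.48 (edgeR adjusted p = 0.338) without 21 mo replicate 3. In 21 mo against 18 mo mice the log2 fold change of Nr4a3 ran from 0.84 without 21 mo replicate 3 to 2.15 without 18 mo replicate 3. Nr4a1, with 43.2 CPM in 21 mo replicate 3 against 6.91 to 21.0 CPM in the other 8 libraries, was high in that library alone. Nr4a2 had 0.401 to 2.25 CPM and overlapped between all groups.

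Nr6a1, the germ cell nuclear factor, was the only receptor with every 21 mo value above every value of both other groups. It measured 3.90, 4.37 and 5.37 CPM at 18 mo, 6.96, 6.31 and 7.33 CPM at 21 mo and 5.47, 3.75 and 5.09 CPM after O304. Log2 fold changes were 0.59 (SE 0.23, edgeR adjusted p = 0.150) in 21 mo against 18 mo mice and -0.52 (SE 0.23, edgeR adjusted p = 0.237) in 21 mo/O304 against 21 mo mice. It overlaps Nr6a1os, an antisense gene whose reads could not be told apart from its own. Nr5a2, the liver receptor homologue, and the atypical Nr0b1, which lacks the DNA-binding domain, stayed under 1 CPM in all 9 libraries. Nr0b2, the corepressor SHP, which also lacks that domain, had 0.700 to 2.79 CPM.

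Nr2f6 was the orphan receptor of the NR2 subfamily with the clearest difference. This receptor, EAR2 by another name, is related to the COUP transcription factors and acts mainly as a repressor. It measured 105, 118 and 125 CPM at 18 mo, 76.8, 69.8 and 56.6 CPM at 21 mo and 83.5, 62.9 and 66.9 CPM after O304. Both older groups lay below every 18 mo mouse and overlapped each other. Means were 116 ± 10.2, 67.7 ± 10.3 and 71.1 ± 10.9 CPM (SD, n = 3). The log2 fold change was -0.78 (SE 0.16, edgeR adjusted p = 0.0626) in 21 mo against 18 mo mice, 0.07 (SE 0.16, edgeR adjusted p = 0.804) in 21 mo/O304 against 21 mo mice and -0.71 (SE 0.16, edgeR adjusted p = 0.323) in 21 mo/O304 against 18 mo mice. DESeq2 gave adjusted p values of 0.00194 for the first and 0.0343 for the last. Within the 21 mo group its values stood in the order of the proximal tubule marker sums, whose part in the result was not tested. The gene overlaps Ocel1, and reads in the shared stretch could not be assigned with certainty. Nr2f2, COUP-TFII of stromal and endothelial cells, varied little, at 66.6 to 79.7 CPM over all mice. Nr2f1, its relative COUP-TFI, had 0.509 to 2.57 CPM. Nr2c1 and Nr2c2, the testicular receptors, had 7.89 to 14.4 and 17.2 to 29.7 CPM.

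Hnf4a, the proximal tubule regulator, measured 851, 924 and 1068 CPM at 18 mo, 1045, 654 and 278 CPM at 21 mo and 976, 849 and 764 CPM after O304. Within the 21 mo group the values ran from within the 18 mo range to the lowest of all 9 mice, in the order of the proximal tubule marker sums of 14099, 7182.5 and 1975.4 CPM, whose part was not tested. The log2 fold change was -0.52 (SE 0.40, edgeR adjusted p = 0.424) in 21 mo against 18 mo mice and 0.39 (SE 0.40, edgeR adjusted p = 0.574) in 21 mo/O304 against 21 mo mice. Without 21 mo replicate 3 these were -0.17 and 0.03. Its paralog Hnf4g had 2.70 to 13.6 CPM over all mice.

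**Figure D3:**
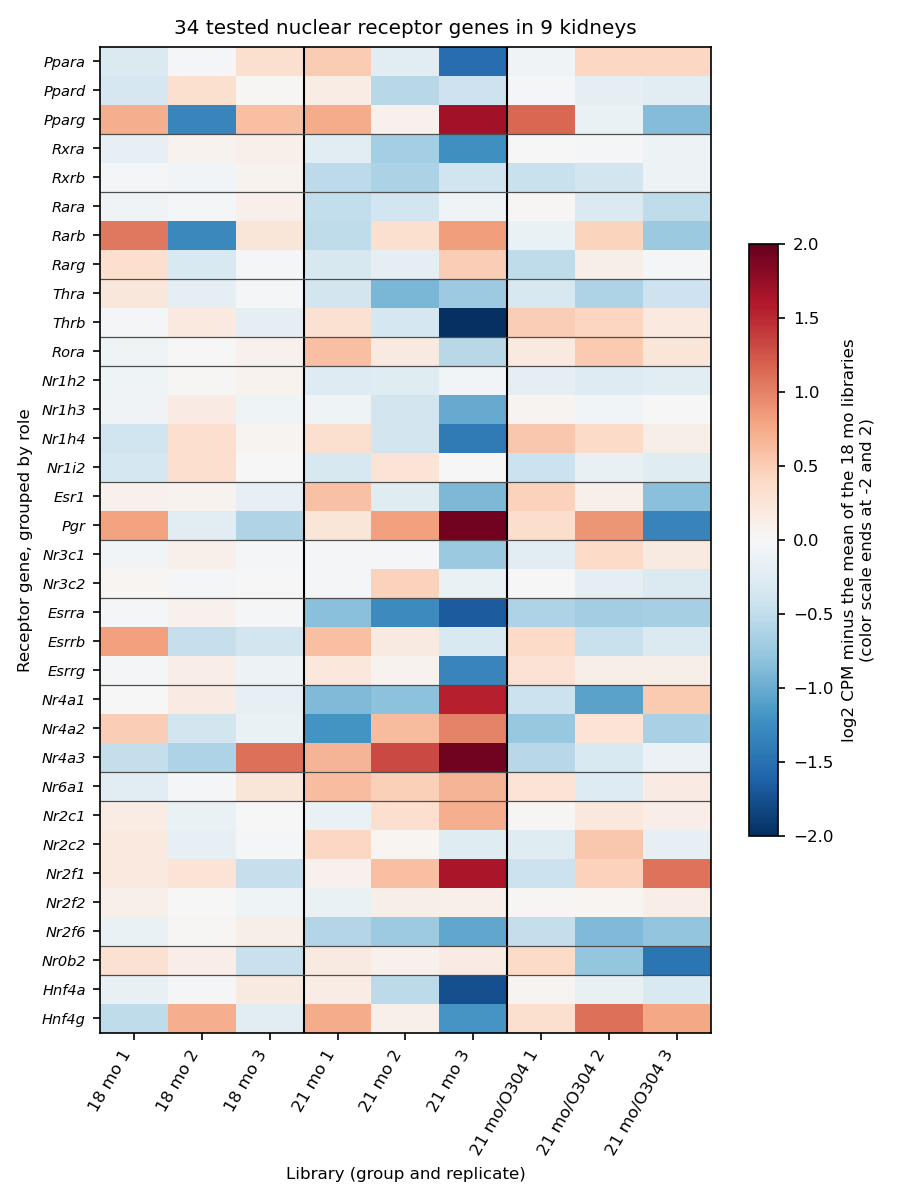
Log2 CPM of the 34 tested receptors (rows, grouped by role) in each of the 9 libraries (columns) minus the mean of the 18 mo libraries, with the color scale ending at -2 and 2. Esrra, Nr2f6, Rxra, Rxrb, Thra and Nr1h2 are below 0 in all 6 libraries of 21-month-old mice, Rxra only slightly after O304. In 21 mo replicate 3, Thrb, Hnf4a, Esrra, Ppara, Nr1h4, Esrrg, Rxra and Hnf4g are the lowest. Pgr, Nr4a3, Pparg, Nr2f1 and Nr4a1 are the highest there.

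Where the values after O304 lay differed between single receptors, and no test compared the receptors with each other. Rxra and Nr1h3 had values after O304 that lay within or above the range of the 18 mo mice. Esrra lay between the 2 other groups after O304. Rxrb, Thra and Nr2f6 remained below every 18 mo mouse after O304, Rxrb only just in replicate 3, at 58.4 against 60.4 CPM. The comparisons share mice, the 21 mo group standing in the first and the second and the 18 mo group in the first and the third, so their fold changes are not independent. An exact permutation test on 3 against 3 mice cannot give a two-sided p below 0.1.

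**Figure D4:**
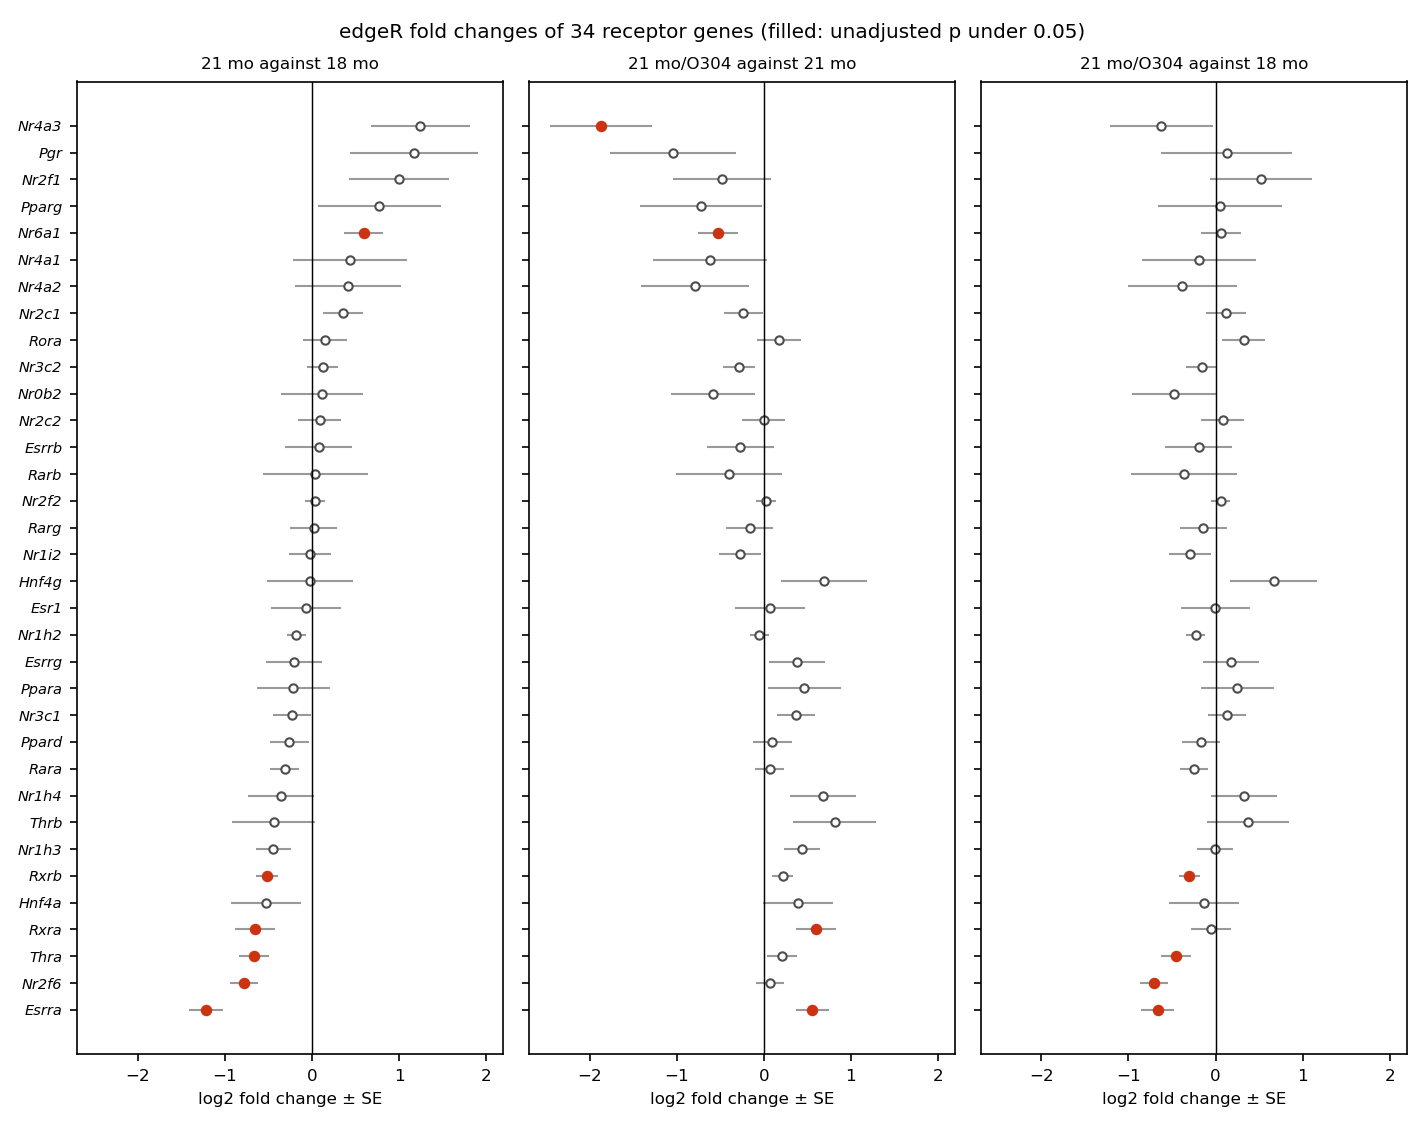
Log2 fold change ± SE from edgeR for the 34 tested receptors (rows, ordered by 21 mo against 18 mo) in the 3 comparisons, with filled red points where the unadjusted p was under 0.05. Esrra is lowest in 21 mo against 18 mo mice at -1.22 and Nr4a3 highest at 1.25, and Nr4a3 is lowest in 21 mo/O304 against 21 mo mice at -1.87.

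Target genes of the receptors were read from 12 lists of known targets and cofactors. No gene of any list passed an adjusted p of 0.05 with edgeR in any comparison, so counts below are at an unadjusted p under 0.05, to be read beside the 14% of all genes higher and 12% lower in 21 mo against 18 mo mice. In 21 mo/O304 against 21 mo mice the background was 8.27% higher and 12.4% lower. Median log2 fold changes over all genes were 0.03 and -0.02 in these comparisons. Genes of a list are not replicates, so counts above or below 0 only describe the list. As for the receptors, the adjusted calls depended on the setting. When 21 mo replicate 1 was left out, edgeR passed 11 and 13 genes of the HNF4A list in these 2 comparisons, 9 and 9 of the ERR list, 8 and 8 of the PPARα list, 6 and 9 of the glucocorticoid list and 3 and 7 of the PPARγ list, beside 25.4% and 23.1% of all genes in either direction. For the other lists it then passed 0 to 5 genes, with 0 in the FXR list and 5 in the thyroid hormone list in both comparisons. Of 27 tested PPARα targets, 5 were higher and 2 lower in 21 mo against 18 mo mice (median log2 fold change -0.16), and 4 were higher and 1 lower in 21 mo/O304 against 21 mo mice (median 0.44). Most of this list was above 0 in the latter comparison, 22 of 27 genes. Fabp1, 1 of the 5 higher, passed the low-count filter only through the 21 mo group, where it was high, so its count is no support. Cpt1a, which admits fatty acids to mitochondria, measured 518, 461 and 288 CPM at 21 mo and 669, 635 and 603 CPM after O304, with a log2 fold change of 0.59 (SE 0.23, edgeR adjusted p = 0.209). Cyp4a14, a fatty acid ω-hydroxylase, ran against the list, at 30.2, 62.0 and 38.2 CPM at 18 mo, 577, 345 and 127 CPM at 21 mo and 161, 99.5 and 38.6 CPM after O304. Its log2 fold changes were 3.01 (SE 0.65, edgeR adjusted p = 0.0631) and -1.81 (SE 0.62, edgeR adjusted p = 0.186).

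Of 14 tested PPARγ targets of adipocytes, 3 were lower and none higher in 21 mo against 18 mo mice, and 8 were higher and none lower in 21 mo/O304 against 21 mo mice, with medians of -0.31 and 1.22. Of the 8, Adipoq and Plin1 passed the low-count filter only through the O304 mice, in which they were high, and Retn only with 2 O304 libraries and 1 of 21 mo, so this count and median support no direction. This list shares 6 genes with the 8 adipocyte markers. Those markers summed to 46.2 to 90.5 CPM at 18 mo, 35.4 to 129 CPM at 21 mo, and 284, 111 and 241 CPM in the O304 mice. Fabp4 alone was most of each 18 mo and 21 mo sum, at 46.0 to 89.7 and 30.1 to 128 CPM. After O304 Fabp4 had 147, 101 and 129 CPM. Cfd and Cidec had at most 3.62 and 1.36 CPM at 21 mo. After O304 Cfd had 78.4, 4.23 and 76.7 CPM and Cidec 20.5, 2.21 and 13.2 CPM. Ucp1 and Cidea had at most 0.339 and 0.814 CPM in any library. The part of these markers in the result was not tested. Plin1, the lipid droplet coat protein of adipocytes, had at most 0.114 CPM in the 21 mo mice and 12.6, 1.13 and 5.35 CPM in the O304 mice. Lpl, lipoprotein lipase, which the kidney itself expresses, measured 825, 1387 and 709 CPM at 18 mo, 547, 176 and 182 CPM at 21 mo and 1020, 1100 and 1206 CPM after O304. Its log2 fold changes were -1.69 (SE 0.47, edgeR adjusted p = 0.0848) and 1.88 (SE 0.47, edgeR adjusted p = 0.175).

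Of 13 tested ERR targets, 12 were below 0 in 21 mo against 18 mo mice, with 5 lower and 1 higher at the unadjusted threshold (median -0.56), and 2 were higher and none lower in 21 mo/O304 against 21 mo mice (median 0.41). Ndufa5, a complex I subunit, measured 141, 137 and 120.0 CPM at 18 mo, 94.4, 75.5 and 61.9 CPM at 21 mo and 98.7, 91.4 and 117 CPM after O304. Its log2 fold change was -0.78 (SE 0.17, edgeR adjusted p = 0.0679) in the first comparison, and the proximal tubule marker sums stood in the same order within the 21 mo group, and their part was not tested. The 1 higher gene was Pdk4, which restrains pyruvate oxidation and also stands in the PPARα list, at a log2 fold change of 1.84 (SE 0.49, edgeR adjusted p = 0.0829). Of 20 tested HNF4A targets of the proximal tubule, 19 were below 0 in 21 mo against 18 mo mice, 5 of them at the unadjusted threshold (median -0.96), and 18 were above 0 in 21 mo/O304 against 21 mo mice, 3 at the threshold (median 1.02). This list shares 3 genes with the proximal tubule markers, whose part in the result was not tested.

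The glucocorticoid list ran the other way. Of its 13 tested genes, 5 were higher and none lower in 21 mo against 18 mo mice (median 0.73), and 7 were lower and none higher in 21 mo/O304 against 21 mo mice (median -1.09). Zbtb16, a hormone-induced zinc finger repressor, measured 1.67, 1.17 and 3.73 CPM at 18 mo, 13.6, 15 and 10.9 CPM at 21 mo and 3.26, 3.34 and 3.95 CPM after O304. All 21 mo mice were above all others, with log2 fold changes of 2.58 (SE 0.39, edgeR adjusted p = 0.0626) and -1.90 (SE 0.38, edgeR adjusted p = 0.175). Lcn2, a tubular injury gene also induced by inflammation, measured 17.5, 322.5 and 1258 CPM in the 21 mo mice, against 2.09 to 15.4 CPM at 18 mo and 3.22 to 11.8 CPM after O304. The macrophage sums of 383, 424 and 1231 CPM and the fibroblast sums of 141, 582 and 1389 CPM in the 21 mo libraries stood in the same order as Lcn2, and their part in the list's result was not tested. The receptor Nr3c1 itself had overlapping levels.

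Smaller lists gave few counts. Of 9 tested LXR targets, 3 were higher in 21 mo against 18 mo mice and 3 lower in 21 mo/O304 against 21 mo mice. Apoe, the lipid carrier of macrophages and other cells, measured 348, 206 and 314 CPM at 18 mo, 706, 1123 and 3298 CPM at 21 mo and 407, 304.1 and 350 CPM after O304. Its log2 fold change was 2.56 (SE 0.53, edgeR adjusted p = 0.0626) in the first comparison, and the macrophage marker sums, 383, 424 and 1231 CPM in the 21 mo libraries, stood in the same order, and their part was not tested. Abca1, the cholesterol exporter, had log2 fold changes of 1.08 (SE 0.30, edgeR adjusted p = 0.0855) and -1.08 (SE 0.30, edgeR adjusted p = 0.175). Of 5 tested FXR targets, 1 was lower in 21 mo against 18 mo mice and the same gene, Slc51a, a bile acid exporter subunit, was higher in 21 mo/O304 against 21 mo mice, at log2 fold changes of -1.40 and 1.38 (SE 0.52 each). Of 8 tested PXR and CAR targets, 3 were higher and 1 lower in 21 mo against 18 mo mice, and 1 was higher and 1 lower in 21 mo/O304 against 21 mo mice. Of the 3, Ugt1a1 and Gsta1 passed the low-count filter only through the 21 mo group, where they were high. Gsta1 was also the 1 lower gene of the second comparison, so the counts of neither comparison support a direction. Of 9 tested retinoic acid targets, 1 was higher and 1 lower in the first comparison and 1 higher and 2 lower in the second. Of 8 tested thyroid hormone targets, a list that includes Thra itself, 1 was higher and 1 lower in each. Of 9 tested mineralocorticoid targets, Fkbp5 alone was counted in 21 mo against 18 mo mice, higher, and the epithelial sodium channel genes Scnn1b and Scnn1g had log2 fold changes of 0.06 and 0.04. After O304, against 21 mo mice, 2 mineralocorticoid targets were lower and none higher (median -0.36), namely Sgk1, a kinase that raises sodium channel activity, at -0.92 (SE 0.23, edgeR adjusted p = 0.175) and Tsc22d3, the glucocorticoid-induced leucine zipper, at -1.09 (SE 0.30, edgeR adjusted p = 0.175). Both also stand in the glucocorticoid list.

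**Figure D5:**
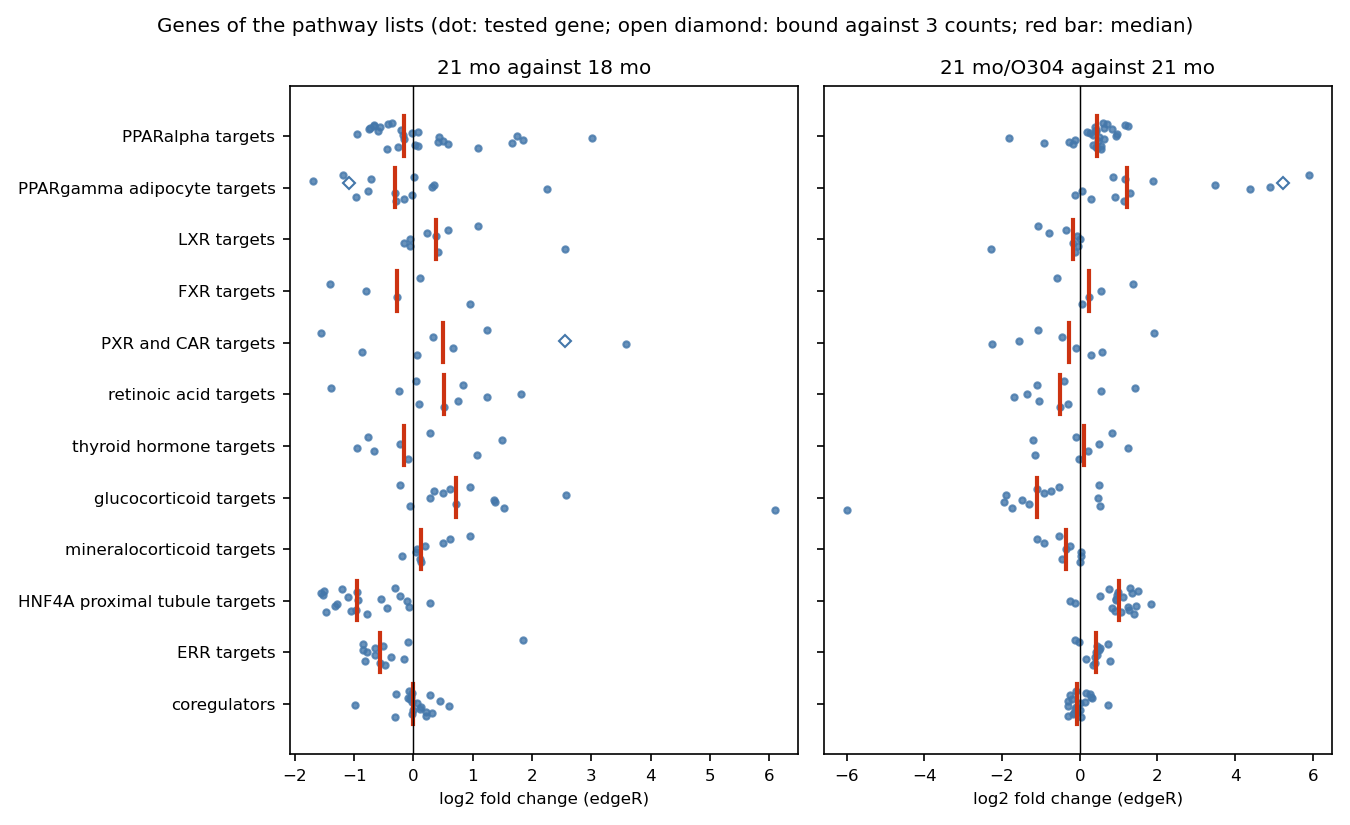
Log2 fold change (edgeR) of each tested gene (dots) in the 12 lists for 21 mo against 18 mo (left) and 21 mo/O304 against 21 mo mice (right), with the list median as a red bar and, as open diamonds, bounds for genes that no library of a group measured above 3 counts. The HNF4A list lies mostly below 0 on the left (median -0.96) and above 0 on the right (median 1.02). The 2 panels share the 21 mo mice.

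Of 20 tested coregulators, 2 were higher and 1 lower in 21 mo against 18 mo mice, and 1 was higher and 1 lower in 21 mo/O304 against 21 mo mice. Ppargc1b, the coactivator PGC-1β, measured 11.9, 9.24 and 6.11 CPM at 18 mo, 5.55, 4.09 and 4.17 CPM at 21 mo and 8.90, 7.15 and 6.88 CPM after O304. Its 21 mo values lay below all others, with log2 fold changes of -0.98 (SE 0.28, edgeR adjusted p = 0.0858) and 0.73 (SE 0.28, edgeR adjusted p = 0.201). Nrip1, a corepressor of several receptors, had log2 fold changes of 0.45 (SE 0.12, edgeR adjusted p = 0.0810) and -0.29 (SE 0.12, edgeR adjusted p = 0.219). Ppargc1a, the coactivator PGC-1α, which was chosen after its values were seen, had overlapping levels of 50.6 to 63.9 CPM at 18 mo, 37.1 to 79.4 CPM at 21 mo and 56.7 to 63.4 CPM after O304.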

How the data were processed

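Kidney RNA of 9 mice was sequenced, 3 mice per group. Per the submitters' processing notes, reads were aligned with HISAT2 2.0.5 to GRCm38 (mm10) and counted with featureCounts 1.5.0-p3. The deposited table holds the authors' raw read counts per gene and FPKM, plus columns of their own comparisons by DESeq2 1.20.0 (fold changes and p-values), which were not used. Whether strand was used in counting is not given in the sources used here. Of the 42 members, 22 overlap another gene in the table, 14 of the tested ones a gene with counts.

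Counts were tested with edgeR 4.0.16 in R 4.3.3 (TMM factors, filterByExpr with a minimum count of 10, a mean per group over all 9 libraries, quasi-likelihood test, two-sided). P-values were adjusted by Benjamini-Hochberg over 15902 genes. CPM used TMM-scaled totals. FPKM compared levels between genes. DESeq2 1.42.0, limma 3.58.1 and other filters and scalings were alternatives, and each library was left out in turn. The code was tested on simulated data. The mice are taken as separate animals from the labels.

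Members and lists were chosen with earlier results of these data known. Values per mouse were given for the PPARs and RXRs, the 3 receptors of highest FPKM, and receptors with an unadjusted p under 0.05 in 21 mo against 18 mo or 21 mo/O304 against 21 mo mice. Of each list, up to 3 genes of smallest p were eligible, some of which are not reported here. Other receptors, Scnn1b, Scnn1g and Ppargc1a were chosen after their values were seen.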

Additional observations from a re-analysis of the deposited data

How the results depend on the processing

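No receptor passed in the main edgeR test in any comparison, and none passed with upper-quartile scaling, a minimum of 10 counts in every library or limma-trend on log2(FPKM + 1). In 21 mo against 18 mo mice, DESeq2 passed 4 of 41 receptors (9.76%), beside 7.29% of all genes. Keeping every gene of at least 1 count in edgeR passed 2 of 41 (4.88%), beside 2.04%. Limma voom with sample weights passed 15 of 34 receptors (44.1%), beside 52.9% of all genes. In 21 mo/O304 against 21 mo mice DESeq2 passed 1, beside 3.36%, and voom 11 (32.4%), beside 41.1%. In 21 mo/O304 against 18 mo mice DESeq2 passed 1, beside 0.446%, and voom 2, beside 2.61%. Fitting only the 6 libraries compared passed 1 there, beside 0.144%. Voom gave 21 mo replicates 1, 2 and 3 weights of 0.223, 9.11 and 0.132, so its 21 mo group rests mainly on 1 mouse. For the other settings the cause was not tested. Leaving out 1 library gave 0 to 6, 0 to 5 and 0 to 0 receptors in these comparisons. The 6 and the 5 came without 21 mo replicate 1, beside 25.4% and 23.1% of all genes.

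The receptors' median log2 fold change in 21 mo against 18 mo mice was -0.12 with at least 10 counts in every library and -0.18 with FPKM. Leaving out 1 library gave -0.19 to -0.024, -0.079 to 0.043 and -0.19 to -0.032 in the 3 comparisons, with slightly more receptors tested.

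Directions turned in some of these settings. With voom, Pparg was at -0.012 in 21 mo against 18 mo mice, and in 21 mo/O304 against 18 mo mice Pparg was at -0.0367 and Nr6a1 at -0.038. Leaving out 1 library, Ppara ranged from -0.73 to 0.15 in 21 mo against 18 mo mice. In 21 mo/O304 against 21 mo mice, Ppard ranged from -0.035 to 0.33 and Nr2f6 from -0.079 to 0.16. In 21 mo/O304 against 18 mo mice, Ppard ranged from -0.32 to 0.0038, Pparg from -0.75 to 0.43, Rxra from -0.13 to 0.0042, Nr4a3 from -0.94 to 0.27 and Nr6a1 from -0.04 to 0.22.

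With the replicate number as a block, 0 receptors passed in each comparison, and the medians were -0.05, 0.05 and -0.12. Same-numbered libraries correlated at -0.13 to 0.18 in their deviations from the group means, and differently numbered ones at -0.26 to 0.20. Deviations of 3 libraries from their own mean are tied to each other, so these values cannot decide whether same-numbered samples share a batch. With 1 read worth up to 0.0669 CPM, the 8 receptors that failed the filter had too few counts for a test, and 3 mice per group limit the precision of the rest.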
